A study of Homo sapiens with 6 samples.

Results

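The transcriptional coactivators YAP and TAZ, 3 of the TEAD transcription factors through which they act, and 5 genes commonly used as their readouts were followed across all libraries of an RNA-sequencing experiment on RBM3-silenced T24 cells. The 10 genes were taken by symbol, YAP1, WWTR1 (which encodes TAZ), TEAD1, TEAD3, TEAD4, CCN1 (CYR61), CCN2 (CTGF), ANKRD1, AMOTL2 and LATS2, and each was found as 1 row among the 63677 gene identifiers of the count table. All 10 were among the 15099 genes that passed the filter on low counts and were tested.

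YAP and TAZ are the end point of the Hippo pathway, a kinase cascade that responds to cell contact, shape, attachment and serum. When the kinases LATS1 and LATS2 are active they phosphorylate YAP and TAZ, which are then kept in the cytoplasm or degraded; when they are inactive, YAP and TAZ enter the nucleus, bind TEAD proteins and switch on genes such as CCN1, CCN2 and ANKRD1. The step from LATS to YAP and TAZ is a change in protein state, so mRNA counts measure how much of each component's transcript is present and how much of the target transcripts, not where the YAP protein is.

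T24 is an established human bladder cancer cell line, labelled grade 3. Control cells received a non-targeting siRNA and siRBM3 cells a pool of siRNAs (s11858 and s11860) against RBM3, which encodes an RNA-binding protein, each at 25 nM with Lipofectamine in serum-free medium. Transfection lasted 4.5 h, full medium was returned, and cells were collected the next day. All libraries therefore share the same line, the lipid, the serum withdrawal and the return of serum. Stranded poly(A) libraries read as single ends of 75 bases were made from 3 samples per group, with replicate numbers 1, 3 and 5 for control and 3, 4 and 5 for siRBM3. Nothing in the labels says that they came from separate cultures, so p-values measure the spread between these samples, which may be technical.

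Library totals ranged from 23603992 to 45098612 counts. RBM3 itself stood at 225.1, 367.6 and 300.7 CPM (the gene's counts as a rate per total counts, scaled by the TMM method) in the control libraries and at 54.13, 90.07 and 58.35 in the siRBM3 libraries, with no overlap. The deepest library, siRBM3 replicate 3, had 9.40% of its counts on mitochondrial genes, against 1.63 to 4.15% in the other 5. The simple-epithelial keratins KRT7, KRT8 and KRT18 were at 665.0 CPM or more in every library. KRT5, KRT20, the epithelial cadherin CDH1, TP63, UPK1A and UPK3A were below 1 CPM throughout and did not pass the filter. PPARG was at 132.6 to 148.9 CPM and FOXA1 at 39.05 to 49.89 CPM. Of 9 tested epithelial and urothelial markers, KRT7 and KRT8 were lower in siRBM3 cells (log2 fold changes -0.38 and -0.37) at an unadjusted edgeR p under 0.05. GATA3 was higher (0.37) at the same threshold. Of all genes tested, 6.58% were lower and 6.56% higher in this way, and none of these markers passed the FDR. Of 7 mesenchymal markers 6 were tested, 5 with a positive and 1 with a negative log2 fold change. FN1 and VIM were the most abundant, at 18970 to 27830 and 2168 to 2858 CPM, with log2 fold changes of 0.24 and 0.16 whose unadjusted edgeR p was 0.103 and 0.233. SNAI2, with a log2 fold change of -0.07, was at 20.74 to 34.78 CPM and ZEB2 at 11.93 to 18.97. TWIST1, at 0.316 CPM or less, did not pass the filter. Of 9 fibroblast, endothelial and leukocyte markers, 4 passed the filter. The endothelial cadherin CDH5 was at 27.19 to 40.41 CPM, COL1A1 at 7.307 to 9.523 and VWF and COL3A1 at 1.106 or less, while DCN, PTPRC, CD3E and CD68 were below 1 CPM and PECAM1 was not matched. COL3A1 was higher in siRBM3 cells by 0.98 on the log2 scale at an unadjusted edgeR p of 0.0483 (FDR 0.377), from a control range of 0.1913 to 0.5649 CPM. Its siRBM3 libraries lay above the control libraries, as for 9.98% of all genes. The part of these markers in the results below was not tested.

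TEAD proteins recognise a short element whose core is GGAATG, which reads as its complement CATTCC when the element faces the other way. The stretch from 250 bases before to 50 bases after the start of each gene's canonical GENCODE transcript was searched for it on both strands of the GRCh37 genome. It was present at 8 of the 10 genes, all but WWTR1 and TEAD3, against 10.1% of the 12135 tested protein-coding genes. Of those genes 0.676% carried it at least 2 times and 0.0742% at least 3 times. ANKRD1, TEAD1, TEAD4 and CCN2 had at least 2 copies, and TEAD4 and CCN2 had 3. The windows of 30 bases below hold these elements and are shown because CCN1, CCN2 and ANKRD1 are the usual readouts of TEAD activity and because TEAD1 and TEAD4 carry the element at their own starts. Each is written 5′ to 3′ on the gene's strand with the core in capitals.
CCN1: cgcgccaaccagCATTCCtgagatgtttga
CCN2: ggaaggtggggaGGAATGcgaGGAATGtcc
ANKRD1: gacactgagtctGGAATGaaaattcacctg
AMOTL2: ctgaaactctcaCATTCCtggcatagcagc
LATS2: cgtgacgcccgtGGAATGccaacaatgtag
YAP1: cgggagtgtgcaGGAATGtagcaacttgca
TEAD1: CATTCCtgtcctCATTCCgaacattcttag
TEAD4: CATTCCagccctCATTCCgcgCATTCCagc

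The CCN1 window lies at chr1:86046322-86046351 on the + strand, and that of CCN2 at chr6:132272599-132272628 on the - strand, with another copy of the core at position -169 from the start. The ANKRD1 window lies at chr10:92680955-92680984 on the - strand. The other ANKRD1 copy lies at position -220. The AMOTL2 window is at chr3:134093341-134093370 on the - strand and the LATS2 window at chr13:21635699-21635728 on the - strand. The YAP1 window is at chr11:101981004-101981033, the TEAD1 window at chr11:12695955-12695984 and the TEAD4 window at chr12:3068550-3068579, all on the + strand. In TEAD1 the copies begin at positions -13 and -1 and in TEAD4 at -13, -1 and 9, so that they lie across the start itself. The LATS2 copy, at position 10, lies in the first exon, and the YAP1 copy at -162 lies upstream of it.

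Of the other motifs searched, TGANTCA with any base at N, a loose form of the AP-1 element, matched at ANKRD1 only among the 10 genes. The match, at position -195, reads TGATTCA, and 4.06% of all protein-coding starts searched held the loose form. The CArG box of the serum response factor was found at none of the 10, against 0.972%. A match describes these letters in this window and does not show that a factor was bound there.

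The 10 genes lay far apart in abundance. Per kilobase of exon, the control libraries held 570.6 ± 110.4 CPM per kb of CCN2 (SD, n = 3) and 347.1 ± 34.95 of CCN1, both secreted matricellular proteins. By the mean over all 6 libraries, 523.3 and 327.0 CPM per kb, they were at ranks 42 and 79 of the tested genes. In the control libraries WWTR1 followed at 39.45 ± 3.762 CPM per kb, a factor of 8.8 below CCN1. YAP1 stood at 37.33 ± 1.406, so the coactivator mRNAs were nearly equal per kilobase of annotated exon. In CPM, not corrected for length, the control means were 329.6 for WWTR1 and 235.6 for YAP1. The length of the transcripts expressed in these cells was not measured. ANKRD1 was at 32.48 ± 2.177, TEAD4 at 19.65 ± 0.3026 and TEAD1 at 16.94 ± 1.816 CPM per kb. The lowest levels were those of AMOTL2 at 11.58 ± 0.8788, TEAD3 at 7.865 ± 1.7 and LATS2 at 5.457 ± 0.9083. Between neighbours in this order the control ranges overlapped for WWTR1 with YAP1 and for TEAD3 with LATS2, and for no other pair.

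**Figure D1:**
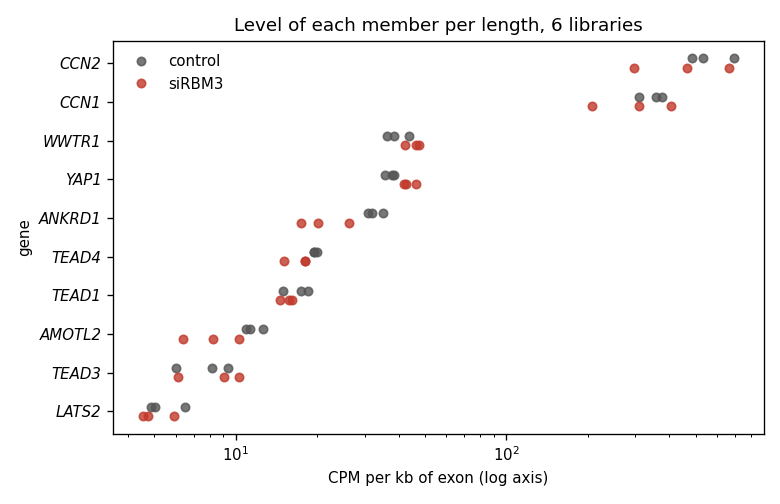
Level of each of the 10 genes in CPM per kilobase of exon (log axis), 1 point per library, for 3 control (grey) and 3 siRBM3 (red) libraries. CCN2 and CCN1 stand apart from the other 8 genes, and WWTR1 and YAP1 lie side by side near 39.45 and 37.33 in the control mean.

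By the criteria taken from the study's methods, a fold change of at least 1.5 with an FDR under 0.01, edgeR (quasi-likelihood test, FDR by Benjamini-Hochberg adjustment) called 0 of the 10 genes. It called 0% of all 15099 genes tested, and the smallest FDR of any gene was 0.0822, which RBM3 shared with other genes. DESeq2 with the same criteria also called 0 of the 10 genes, where 1.22% of 13068 genes were called, and limma-voom called 0 of the 10 and 0% of all 15099 genes, with 13.1% of them at an unadjusted p under 0.05. When edgeR was run on all 30090 genes without the low-count filter, 1 of the 10 genes, ANKRD1, was called, as were 0.927% of those genes. At an unadjusted p under 0.05 in edgeR, YAP1 was higher in siRBM3 cells, where 6.56% of all genes were, and ANKRD1 and AMOTL2 were lower, where 6.58% of all genes were. The siRBM3 libraries lay entirely above the control libraries for YAP1, as for 9.98% of all genes. They lay entirely below for TEAD4, ANKRD1 and AMOTL2, as for 9.93% of all genes. The fitted log2 fold change (siRBM3 minus control) was positive for 3 genes and negative for 7, with a median of -0.15 against -0.01 over all genes tested. The genes are described below by role, each with its CPM in every library.

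**Figure D2:**
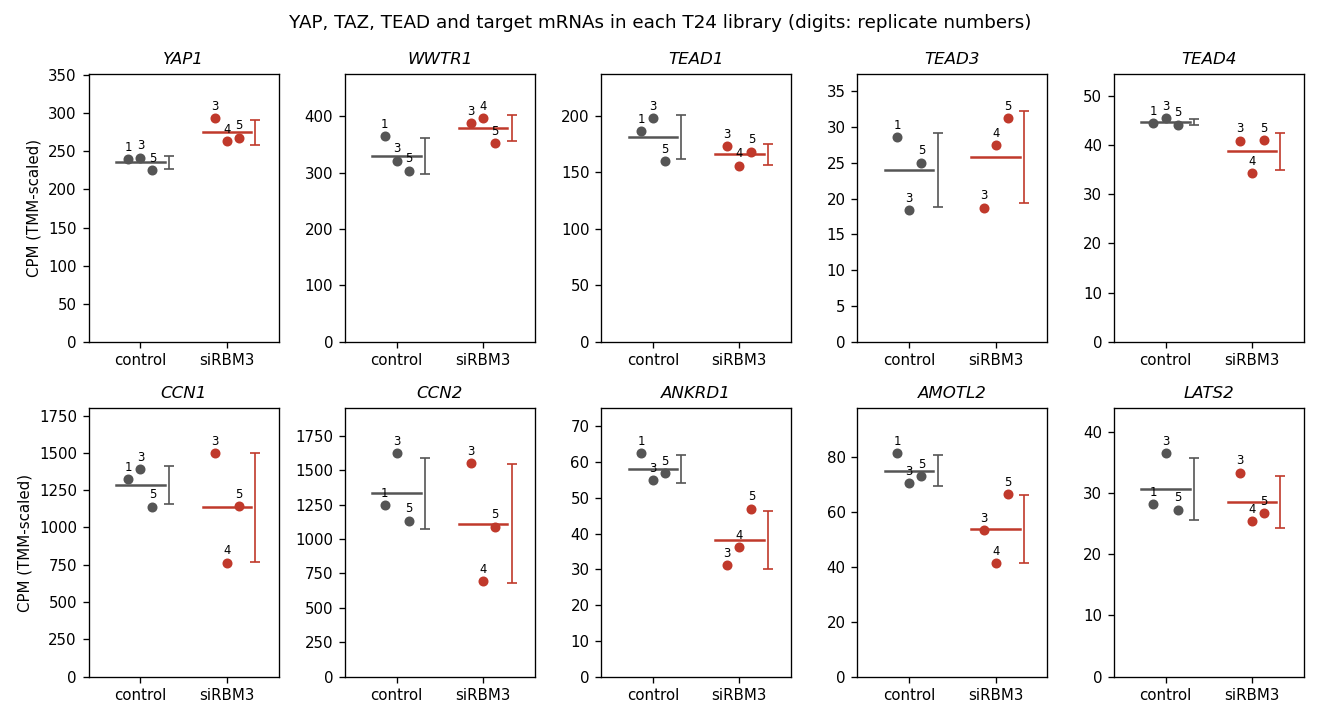
TMM-scaled CPM of the 10 genes in each T24 library, with 1 point per library marked by its replicate number, the group mean as a line and the SD (n = 3) as a bar; each axis starts at 0. ANKRD1, AMOTL2 and TEAD4 are lower in every siRBM3 library than in any control library, YAP1 is higher, and CCN1 and CCN2 spread most widely in the siRBM3 group.

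YAP1 (ENSG00000137693, chr11:101981178-102104155, + strand) encodes the coactivator YAP. It was at 239.5, 241.8 and 225.4 CPM in control replicates 1, 3 and 5 and at 293.5, 263.2 and 268.1 CPM in siRBM3 replicates 3, 4 and 5. Every siRBM3 library was above every control library, with means of 274.9 ± 16.24 and 235.6 ± 8.872 CPM (SD, n = 3). The ratio was 1.17, or a log2 fold change of 0.22 (SE 0.089, 95% interval 0.02 to 0.43), with an unadjusted p of 0.0347 in edgeR and an FDR of 0.336. The exact permutation test gave p = 0.1, the smallest that 3 against 3 allows. The unadjusted p was above 0.05 without control replicate 5 (0.1) or without siRBM3 replicate 3 (0.131), 4 (0.0528) or 5 (0.0634), with log2 fold changes of 0.17 to 0.25. It was also above 0.05 when counts were scaled by library size only (log2 fold change 0.17, p 0.136).

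WWTR1 (ENSG00000018408, chr3:149235022-149454501, - strand) encodes TAZ, the paralogue of YAP. Its levels were 364.3, 321.1 and 303.2 CPM in control cells and 387.4, 396.4 and 352.7 CPM in siRBM3 cells. Control replicate 1 lay above siRBM3 replicate 5, so the groups overlapped. The log2 fold change was 0.20 (SE 0.103, 95% interval -0.03 to 0.44), with an edgeR FDR of 0.456. Without control replicate 1 it was 0.28, with an unadjusted edgeR p of 0.0269. Within a library the log2 ratio of YAP1 to WWTR1 counts was -0.48 ± 0.108 in control and -0.46 ± 0.111 in siRBM3 cells (SD, n = 3), a difference of 0.02 with an exact two-sided permutation p of 0.5. Per kilobase YAP1 made up 48.7% of the sum of both in control cells and 49.0% in siRBM3 cells.

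The TEAD genes encode the DNA-binding partners of both coactivators. TEAD1 (ENSG00000187079, chr11:12695968-12966284, + strand) was at 186.2, 197.7 and 159.8 CPM in control cells and at 173.1, 155.7 and 168.3 CPM in siRBM3 cells. These ranges overlapped, and the log2 fold change was -0.13 (SE 0.105, 95% interval -0.37 to 0.11) with an edgeR FDR of 0.651. TEAD3 (ENSG00000007866, chr6:35441374-35464856, - strand) was at 28.57, 18.36 and 25.01 CPM in control cells and at 18.72, 27.50 and 31.23 CPM in siRBM3 cells. Its lowest values were those of both libraries numbered 3, the groups overlapped, and the log2 fold change of 0.10 had a 95% interval of -0.41 to 0.62. The SE of this difference, 0.224, was exceeded among the 10 genes by that of CCN2 alone.

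TEAD4 (ENSG00000197905, chr12:3068496-3149842, + strand) was the steadiest of the 10 genes in control cells, at 44.46, 45.48 and 44.17 CPM. In siRBM3 cells it was at 40.94, 34.37 and 41.00 CPM, below every control library. The log2 fold change was -0.21 (SE 0.108, 95% interval -0.45 to 0.04), with an unadjusted p of 0.0929 and an FDR of 0.467 in edgeR, so the difference did not pass the test although the groups did not overlap. It had the same sign with each library left out, from -0.25 to -0.13.

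TEAD2, the remaining TEAD gene, differed in the opposite direction to TEAD4. It was at 62.80, 43.23 and 60.18 CPM in control and at 70.68, 74.23 and 80.46 CPM in siRBM3 cells. Every siRBM3 library was thus above the control libraries, as for 9.98% of all genes. The log2 fold change was 0.44 (SE 0.148) with an unadjusted p of 0.0169 and an FDR of 0.271 in edgeR. As shares of the per-kilobase total of the 4 TEAD genes, TEAD2 stood at 29.3 ± 4.15% in control and 38.1 ± 1.07% in siRBM3 cells (SD, n = 3). TEAD4 stood at 31.3 ± 2.46% and 25.7 ± 2.2%, TEAD1 at 27.0 ± 3.89% and 23.4 ± 1.63%, and TEAD3 at 12.4 ± 1.94% and 12.7 ± 2.73%. TEAD2 had the largest share in all 3 siRBM3 libraries and in control replicates 1 and 5 (31.3 and 32.2%), and TEAD4 had it in control replicate 3 (33.9%). Of the TEAD2 exon length 10.7% overlaps CD37, and reads there cannot be assigned with certainty. The log2 ratio of TEAD1 to TEAD4 CPM, which unlike these shares is not corrected for the greater exon length of TEAD1, was 2.01 ± 0.14 in control and 2.10 ± 0.073 in siRBM3 cells, with an exact two-sided permutation p of 0.5 for the difference.

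CCN1 (ENSG00000142871, chr1:86046444-86050272, + strand) and CCN2 (ENSG00000118523, chr6:132269316-132272512, - strand) encode secreted proteins that bind integrins and the matrix, and both are immediate-early genes that also answer to serum. CCN1 was at 1322, 1389 and 1140 CPM in control cells and at 1499, 763.7 and 1143 CPM in siRBM3 cells. CCN2 was at 1244, 1625 and 1133 CPM in control cells and at 1554, 693.6 and 1091 CPM in siRBM3 cells. For both genes siRBM3 replicate 4 was the lowest of the 6 libraries, and siRBM3 replicate 3 lay within or above the control range. The SD in the siRBM3 group was 367.5 CPM for CCN1 and 430.7 CPM for CCN2.

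The groups overlapped for both genes. For CCN1 the log2 fold change was -0.18 (SE 0.221, 95% interval -0.69 to 0.33) with an edgeR FDR of 0.785. For CCN2 it was -0.26 (SE 0.276, 95% interval -0.90 to 0.38) with an edgeR FDR of 0.742. Both intervals reach past a 1.5-fold lower level and also take in higher levels. Which library was left out decided the value. Without siRBM3 replicate 3, whose mitochondrial share was the highest, the log2 fold changes were -0.43 for CCN1 and -0.58 for CCN2, with unadjusted edgeR p of 0.0489 and 0.033. Without siRBM3 replicate 4 they were 0.04 for CCN1 and -0.01 for CCN2. The role of the mitochondrial share in this spread was not tested.

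ANKRD1 (ENSG00000148677, chr10:92671853-92680844, - strand) encodes an ankyrin repeat protein of the nucleus and the muscle sarcomere and is induced by YAP and TAZ in many adherent cells. It was at 62.49, 54.97 and 56.94 CPM in control cells and at 31.22, 36.15 and 46.97 CPM in siRBM3 cells. Every siRBM3 library was below every control library, and the means were 58.13 ± 3.898 and 38.11 ± 8.058 CPM (SD, n = 3). The ratio was 0.655 and the log2 fold change -0.61 (SE 0.154, 95% interval -0.96 to -0.26). The unadjusted edgeR p was 0.00383, the smallest among the 10 genes, and the FDR after Benjamini-Hochberg adjustment over all tested genes was 0.175. DESeq2 gave the same fold change, -0.61, with an FDR of 0.0317, which is also above the threshold of 0.01. Over all alternatives the FDR ranged from 0.000931, with no filter on low counts, where the gene was called, to 0.433. Leaving out single libraries kept the log2 fold change between -0.79, without siRBM3 replicate 5, and -0.48, without siRBM3 replicate 3. The gene rested on 915 to 1813 counts per library, and no other annotated gene overlaps its exons. In bulk RNA, fewer cells expressing a gene and less of its RNA per cell cannot be told apart.

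AMOTL2 (ENSG00000114019, chr3:134074189-134094321, - strand) encodes an angiomotin-like scaffold that binds YAP and holds it out of the nucleus, and it is itself a target of YAP. It was at 81.44, 70.58 and 73.06 CPM in control cells and at 53.45, 41.40 and 66.46 CPM in siRBM3 cells. All siRBM3 libraries lay below all control libraries, with replicate 5 close to the control range and replicate 4 farthest from it. The log2 fold change was -0.48 (SE 0.166, 95% interval -0.86 to -0.10), with an unadjusted p of 0.0189 and an FDR of 0.279 in edgeR. It was -0.42 without control replicate 1 and -0.32 without siRBM3 replicate 4, where the unadjusted p was 0.0506 and 0.0556, and -0.66 without siRBM3 replicate 5. A ribosomal protein pseudogene, RPL39P5, overlaps its exons but had at most 27 counts in any library.

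LATS2 (ENSG00000150457, chr13:21547175-21635725, - strand) encodes the kinase that phosphorylates YAP and TAZ and is also a YAP target, which closes a negative feedback loop. It was the least abundant member per length, at 28.12, 36.49 and 27.27 CPM in control and 33.29, 25.40 and 26.71 CPM in siRBM3 cells. The groups overlapped, and the log2 fold change was -0.10 (SE 0.160, 95% interval -0.47 to 0.26) with an edgeR FDR of 0.832. Its paralogue LATS1 was at 46.5, 55.89 and 45.3 CPM in control and 59.78, 49.74 and 57.54 CPM in siRBM3 cells. The log2 ratio of LATS2 to LATS1 CPM, not corrected for length, was -0.73, -0.61 and -0.73 in the control libraries and -0.84, -0.97 and -1.11 in the siRBM3 libraries. The ratio was thus lower in every siRBM3 library, by 0.28 on average, with an exact two-sided permutation p of 0.1, the smallest this design allows, and 0.4 after adjustment over the 4 pairs compared. The remaining pair, CCN1 to CCN2, had a log2 ratio of CPM of -0.04 ± 0.163 in control and 0.05 ± 0.097 in siRBM3 cells, with an exact permutation p of 0.6.

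The target genes did not share a single pattern over the 6 libraries. CCN1 and CCN2 varied together, with a Pearson r of their log2 CPM of 0.97, both with and without removal of the group means. CCN1 with ANKRD1 had r = 0.21, and CCN2 with ANKRD1 had r = 0.20. Once the group means were removed, these values were -0.22 and -0.31. ANKRD1 and AMOTL2 had r = 0.87, and 0.63 once the group means were removed. LATS2 had r = 0.87 with CCN2 and 0.76 with CCN1, but 0.22 with AMOTL2 and -0.03 with ANKRD1. Without the group means these were 0.86, 0.74, 0.0 and -0.56. AMOTL2 had r = 0.62 with CCN1 and 0.57 with CCN2, or 0.58 and 0.46 without the group means. These values are descriptions over 6 libraries that share 2 treatments, and no test was made of any of the 45 pairs. In siRBM3 replicate 4, CCN1, CCN2, AMOTL2 and TEAD4 were all at their lowest, at -0.63, -0.77, -0.60 and -0.27 from their own means on the log2 scale. LATS2 and TEAD1 were also at their lowest there, at -0.21 and -0.15. In siRBM3 replicate 3, by contrast, CCN1 and CCN2 were 0.34 and 0.40 above their means while ANKRD1 was at its lowest, -0.58.

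**Figure D3:**
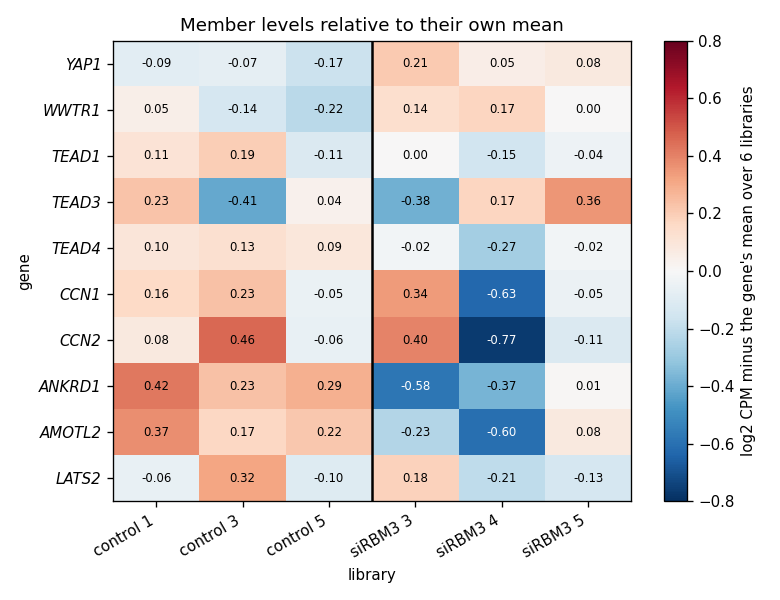
Heat map of log2 CPM minus the gene's mean over the 6 libraries for the 10 genes (rows) in the 3 control and 3 siRBM3 libraries (columns), red above and blue below the mean. ANKRD1 is at its lowest in siRBM3 replicate 3 (-0.58), where CCN1 and CCN2 are at 0.34 and 0.40. CCN1, CCN2, AMOTL2, TEAD4, LATS2 and TEAD1 are at their lowest in siRBM3 replicate 4.

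Of the other genes of the pathway, the core kinase cassette (STK3, STK4, SAV1, LATS1, MOB1A and MOB1B) had none of its 6 genes at an unadjusted edgeR p under 0.05. The siRBM3 libraries lay above the control libraries for MOB1A and MOB1B, the adaptors that activate LATS, where 9.98% of all genes lay so, and the median log2 fold change of the group was 0.06. MOB1A and STK4, the most abundant of them, had log2 fold changes of 0.15 and -0.06. Of 15 upstream activators and scaffolds, 2 were above and 1 below their control level at an unadjusted edgeR p under 0.05. Of all genes tested, 6.56% were above and 6.58% below in this way. The median log2 fold change of the 15 was 0.06, and none passed the FDR. FAT1, a giant atypical cadherin, was at 155.9, 186.4 and 169.2 CPM in control and 238.3, 198.7 and 219.2 CPM in siRBM3 cells, with a log2 fold change of 0.36 (SE 0.108, edgeR FDR 0.232). TAOK1, a kinase that activates the Hippo kinases, was at 122.5, 142.0 and 116.7 CPM in control and 183.2, 143.3 and 168.3 CPM in siRBM3 cells, with a log2 fold change of 0.38 (SE 0.122, edgeR FDR 0.256). WWC1 (KIBRA), a scaffold that promotes LATS phosphorylation, was lower, at 23.75, 20.47 and 16.27 CPM in control and 13.70, 13.91 and 14.77 CPM in siRBM3 cells, with a log2 fold change of -0.51 (SE 0.159, edgeR FDR 0.240).

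Among the LATS inhibitors AJUBA, LIMD1 and WTIP, none was at an unadjusted edgeR p under 0.05. LIMD1, the most abundant, had a log2 fold change of 0.17 with every siRBM3 library above the control libraries, as for 9.98% of all genes. WTIP had one of -0.26 with overlapping groups. AJUBA, at 2.64 CPM or less, had one of -0.50 with an unadjusted edgeR p of 0.0684. Every siRBM3 library of AJUBA lay below the control libraries, as for 9.93% of all genes. Of the 5 other TEAD and VGLL cofactors, VGLL1 and VGLL2 did not pass the filter. TEAD2 and VGLL4 were higher at an unadjusted edgeR p under 0.05, as were 6.56% of all genes tested. VGLL4, which competes with YAP for TEAD, was at 84.65, 64.42 and 75.02 CPM in control and 84.15, 103.9 and 93.01 CPM in siRBM3 cells. These groups overlapped, and the log2 fold change was 0.33 (SE 0.129, edgeR FDR 0.333). Of the VGLL4 exon length 23.8% is shared with other annotated genes.

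A further 17 published YAP and TAZ targets were all tested. Of these 8 had a positive and 9 a negative log2 fold change, with a median of -0.05. The siRBM3 libraries lay above the control libraries for 2 and below for 5, where 9.98% and 9.93% of all genes did so. GADD45A, a stress-induced growth arrest gene, was at 152.6, 208.4 and 244.8 CPM in control and 125.9, 127.8 and 124.9 CPM in siRBM3 cells, a log2 fold change of -0.68 (SE 0.159) with an edgeR FDR of 0.157. AXL, a receptor tyrosine kinase, was at 391.8, 395.3 and 379.2 CPM in control and 276.9, 297.2 and 321.5 CPM in siRBM3 cells, a log2 fold change of -0.38 (SE 0.092) with an edgeR FDR of 0.161. NUAK2, a kinase of the AMPK family, had a log2 fold change of -0.45 (SE 0.137) and the Arf regulator ASAP1 one of -0.31 (SE 0.122). In the other direction, the RNA-binding protein gene RBMS3 had a log2 fold change of 0.35 (SE 0.099) and CCDC80, which encodes a matrix protein, one of 0.44 (SE 0.169). These were the 6 genes of the 17 at an unadjusted p under 0.05, 2 higher and 4 lower, where 6.56% and 6.58% of all genes were, and none passed the FDR in edgeR. The TEAD core was present at the starts of 5 of the 17, or 29.4%, among them NUAK2 and ASAP1.

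CCN1, CCN2 and ANKRD1 are also reached by the serum response factor (SRF) and its actin-sensing cofactor MRTF. Of 12 listed SRF and MRTF targets 10 were tested, CNN1 and ACTG2 being too low, and none was at an unadjusted edgeR p under 0.05. Of the 10 tested, 3 had a positive and 7 a negative log2 fold change, with a median of -0.03. ACTB and FLNA, the most abundant, had log2 fold changes of 0.12 and 0.03. The lowest were those of FHL2 (-0.38) and TAGLN (-0.31), with unadjusted edgeR p of 0.0842 and 0.0543. Of the other CCN genes, CCN3 was the only tested one, with a log2 fold change of 0.56 and an unadjusted edgeR p of 0.102.

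**Figure D4:**
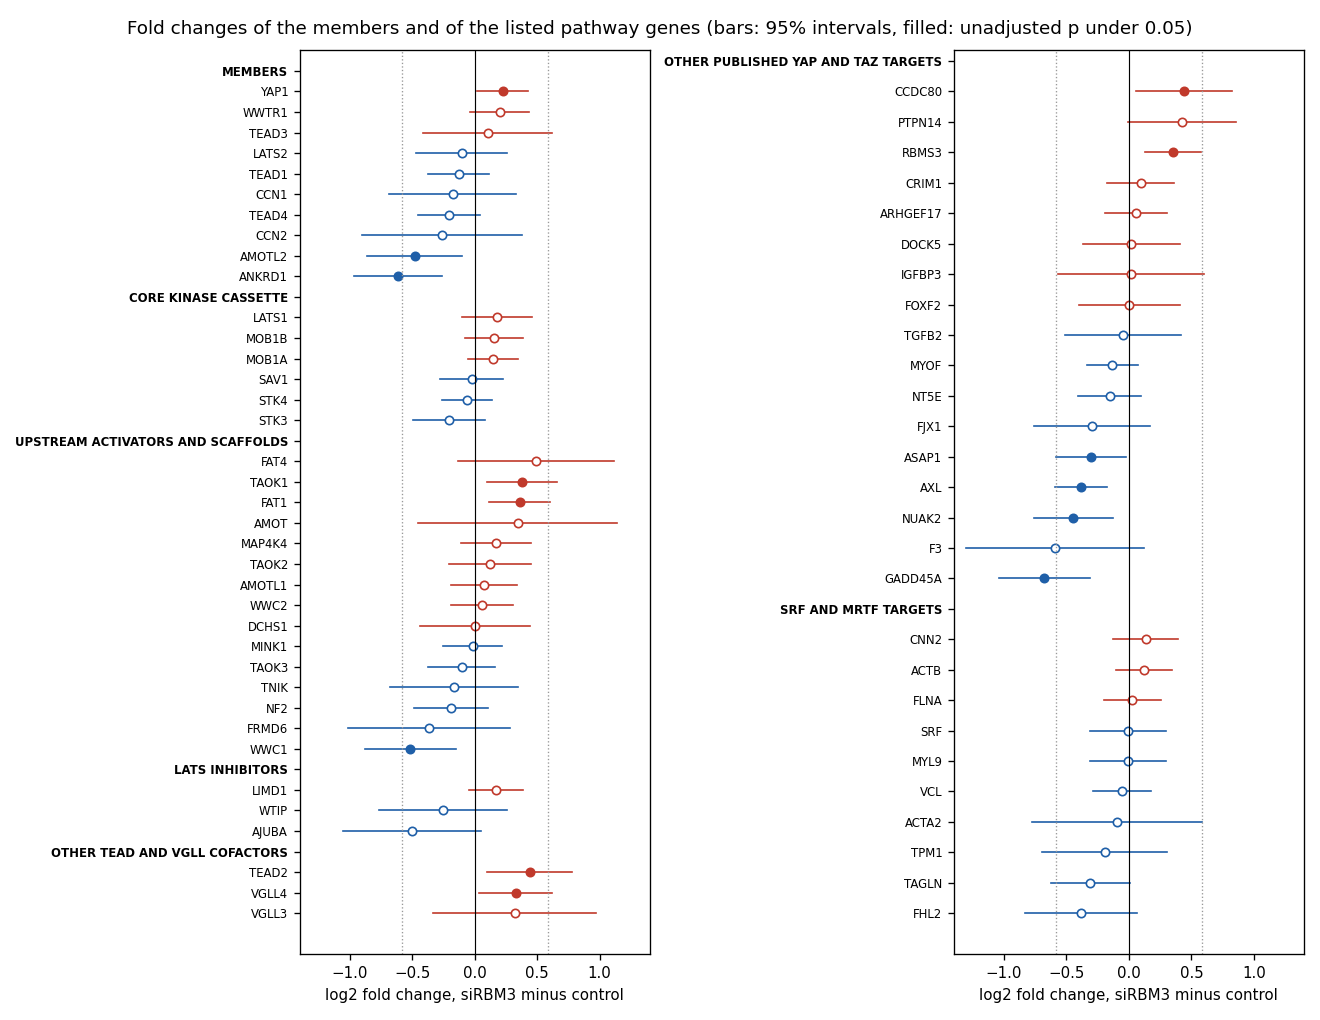
Log2 fold change (siRBM3 minus control) with its 95% interval from edgeR for the 10 genes and for the listed pathway and target genes that were tested. Filled points have an unadjusted p under 0.05, red is higher and blue lower in siRBM3, and dotted lines mark a fold change of 1.5; ANKRD1 (-0.61) and GADD45A (-0.68) are the filled points beyond the lower line.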

How the data were processed

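RNA from 3 control and 3 siRBM3 samples of T24 cells was sequenced. The authors trimmed the reads with BBDuk, aligned them to GRCh37 (hg19) with STAR 2.5.2a, used Picard to mark duplicates and featureCounts to assign reads to genes. The deposited values are raw counts, without scaling. The strand setting and the handling of duplicates are not given in the sources used, so antisense transcripts could add reads. The antisense genes WWTR1-AS1 (at most 50 counts), LINC01013 (at most 6) and that at YAP1 (at most 70) had few reads beside the 5986 or more of the genes they overlap. Other annotated genes share 10.1% of the exon length of YAP1, 9.05% of that of WWTR1 and 11.9% of that of CCN2. Reads in those stretches cannot be assigned with certainty.

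Symbols and places of 55665 of the 63677 identifiers came from GENCODE 44 mapped to GRCh37. Genes were kept by filterByExpr of edgeR 4.0.16 (minimum count 10, minimum total 15), scaled by TMM and fitted over all genes with the robust quasi-likelihood test, with siRNA group as the only term. P-values were adjusted by Benjamini-Hochberg over all 15099 genes. The criteria (fold change 1.5, FDR 0.01) follow the study's methods, based on DESeq2. Alternatives, in R 4.3.3, were limma-voom (limma 3.58.1) and DESeq2 1.42.0. The others were RLE factors, library size only, no filter, a mean of at least 20 counts, a newer quasi-likelihood form, each library left out and the replicate number as a block. A single value was tested by the exact two-sided permutation test, which cannot go below 0.1 with 3 against 3. Intervals are 95%. Totals of 23603992 to 45098612 counts left at least 480 counts for every member in every library.

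The members and lists were chosen with earlier results of these data known. Named from each list were the genes at an unadjusted p under 0.05, at most 6, or, where there were none, the 2 with the highest mean, besides the 5 genes nearest to CCN1 and CCN2. Other genes were named after their values were seen. No pair of libraries of 1 group agreed within sampling noise, with a chi-square per degree of freedom of 27.7 to 141.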

Additional observations from a re-analysis of the deposited data

How the results depend on the processing

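The spread between 3 libraries per group was widest for CCN1, CCN2 and TEAD3, whose log2 fold changes had an SE of 0.221 to 0.276, and the design allows no exact p below 0.1. The count of the 10 genes called was 0 in every setting but that with no filter on low counts, where 1 gene, ANKRD1, was called (log2 fold change -0.60, FDR 0.000931) together with 0.927% of the 30090 genes tested there. The number at an unadjusted edgeR p under 0.05, 3 as reported, ranged from 1 (without siRBM3 replicate 4) to 4 (without siRBM3 replicate 3) when each library was left out. With counts scaled by library size only it was 2, without YAP1. ANKRD1 was among them in every setting. The median log2 fold change of the 10 genes ranged from -0.24 to -0.02.

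Direction depended on single libraries for 3 genes. Leaving out each library gave log2 fold changes of -0.058 to 0.292 for TEAD3, -0.429 to 0.042 for CCN1 and -0.233 to 0.041 for LATS2. The difference in the log2 ratio of YAP1 to WWTR1 ranged from -0.044 to 0.083 and turned negative without control replicate 1, siRBM3 replicate 3 or siRBM3 replicate 5. The cause was not tested.

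The groups share only the replicate numbers 3 and 5, and the numbers were not taken as pairs in the main fit. Correlations of the deviations were 0.50 for the samples numbered 3 and 0.09 for those numbered 5. Between samples with different numbers they ran from -0.34 to 0.19. Whether the samples numbered 3 share an origin was not tested. A fit with the replicate number as a replicate block leaves 1 residual degree of freedom. In it, control replicate 1 and siRBM3 replicate 4 each have a block of their own. The group difference there therefore rests only on the libraries numbered 3 and 5. CCN1 changed sign to 0.057, AMOTL2 moved from -0.48 to -0.27 and CCN2 from -0.26 to -0.06. TEAD1 moved from -0.13 to -0.06, TEAD4 from -0.21 to -0.13 and TEAD3 from 0.10 to 0.18. The members at an unadjusted edgeR p under 0.05 in this fit were YAP1, ANKRD1 and AMOTL2.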

Other observations

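By Pearson correlation with the mean log2 CPM of CCN1 and CCN2, the nearest 5 of 15085 genes were NR4A1 (r = 0.995), a gene known only as ENSG00000261490 (0.986), EGR2 (0.986), KLF9 (0.984) and CYP2R1 (0.983), over the 6 libraries. NR4A1, an orphan nuclear receptor induced within minutes by serum, was at 90.78, 126.7 and 68.2 CPM in control replicates 1, 3 and 5 and at 121.3, 33.34 and 65.01 CPM in siRBM3 replicates 3, 4 and 5. EGR2, an early growth response factor, was at 4.033, 8.875 and 3.389 CPM in control cells and at 10.48, 0.9481 and 3.027 CPM in siRBM3 cells. All 5 genes were lowest in siRBM3 replicate 4, as CCN1 and CCN2 were, and highest in the libraries numbered 3. The ranking by r selects for this profile. Over all genes compared, 69 (0.457%) had an r of at least 0.9. With 6 libraries and genes ranked by the same values, these correlations describe the libraries and were not tested.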
